A study of Mus musculus with 6 samples.

Results

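The glucocorticoid response was followed through 9 genes in mouse fat precursors: Nr3c1, which encodes the glucocorticoid receptor, Hsd11b1, which encodes an enzyme that regenerates active glucocorticoid, and 7 genes widely known to respond to the receptor (Fkbp5, Tsc22d3, Zbtb16, Sgk1, Mt1, Mt2 and Dusp1). The 9 were taken by symbol and make up 9 of the 45808 gene lines of the count table. All 9 passed the filter on low counts, as did 14459 lines in total. RNA was sequenced from wild-type (WT) stromal-vascular cells, the non-adipocyte fraction of fat tissue, which had been isolated from inguinal subcutaneous fat of male mice aged 8 weeks and cultured. No strain is named in the labels. The cells were taken through beige adipocyte differentiation, in which fat cells with some brown-fat character form. At each of 3 times 2 libraries were made, numbered 76 and 77: at confluence before any induction (day 0), after 2 days of induction (day 2), and at day 6. Induction medium contained 5 µM dexamethasone together with 0.5 mM IBMX, which raises cyclic AMP, and 125 µM indomethacin, and it also held rosiglitazone at 1 µM, insulin at 850 nM and the thyroid hormone T3 at 1 nM. From day 2 to day 6 the cells were in maintenance medium, which had the same insulin, T3 and rosiglitazone but no dexamethasone, IBMX or indomethacin. All 6 agents were added together and 3 were withdrawn together, and no group received dexamethasone alone, so the contributions of single agents and of time in culture cannot be told apart.

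The glucocorticoid receptor waits in the cytoplasm in a complex with Hsp90 and its co-chaperones. Once a steroid such as dexamethasone binds, it moves to the nucleus, where it raises some genes through paired half-sites called glucocorticoid response elements and lowers many inflammatory genes. In adipocyte precursors dexamethasone is a standard part of differentiation cocktails, and several of its targets, such as Fkbp5 and Tsc22d3, encode proteins that dampen the receptor's own signal or inflammation.

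Promoter sequence is shown for 4 of the genes whose levels are described below, to show what the response element, the cyclic AMP element and the metal response elements look like there. RefSeq windows of 300 bases (250 before and 50 after an annotated start, GRCm38.p6) were at hand for 7 of the 9 genes, 14 windows in all. A glucocorticoid response element was searched as AGAACA, any 3 bases, then TGTTCT, on both strands. It occurred in 3 of 32851 windows (0.00913%), and 1 of these 3 belongs to Sgk1, where it begins 189 bases before the fifth of 6 annotated starts. With up to 1 mismatch it occurred in 0.164% of windows, and no further window of these genes held it. The cyclic AMP element TGACGTCA, which is its own reverse complement, was found in 1.79% of windows and in that of Dusp1, 143 bases before the start. The core of the metal response element, TGCGCNC or TGCACNC on either strand, was found at least once in 25.7% of windows and 3 or more times in 1.97%, with 3 matches for Mt1 and 4 for Mt2. These are matches of letters and show no binding. Printed are 1 of the 3 matches of Mt1 and 2 of the 4 of Mt2, the others lying outside the stretches. The stretches lie before the annotated start of their own window, do not include annotated exon bases of their gene, and have the matched letters in capitals.
Sgk1 promoter, chr10:21993661-21993760, plus strand: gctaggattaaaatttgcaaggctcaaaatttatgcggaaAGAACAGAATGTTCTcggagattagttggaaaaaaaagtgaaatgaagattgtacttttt
Dusp1 promoter, chr17:26508556-26508655, minus strand: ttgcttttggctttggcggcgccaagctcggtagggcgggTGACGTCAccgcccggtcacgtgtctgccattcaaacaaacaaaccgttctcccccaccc
Mt1 promoter, chr8:94178939-94179081, plus strand: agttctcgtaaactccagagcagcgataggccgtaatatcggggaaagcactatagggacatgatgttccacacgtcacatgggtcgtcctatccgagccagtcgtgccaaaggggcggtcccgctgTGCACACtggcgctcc
Mt2 promoter, chr8:94172468-94172617, plus strand: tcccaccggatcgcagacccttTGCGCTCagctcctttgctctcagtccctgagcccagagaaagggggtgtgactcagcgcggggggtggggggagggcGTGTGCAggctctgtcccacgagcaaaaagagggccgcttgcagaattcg

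Levels are given as CPM, the usual depth-scaled read count, after TMM scaling, with libraries 76 and 77 in that order, and means carry the SD of n = 2 libraries. A gene is called higher or lower when the adjusted p of edgeR's quasi-likelihood test is under 0.05, adjusted over all 14459 genes tested, and folds come from that fit. Nothing in the labels says whether the libraries of a day came from separate mice or cultures, so the p-values measure only the spread between these libraries, which may be technical. The test estimates that spread for each gene partly from the other genes tested. Counts in genes ranged from 22522221 to 29458374 per library. Summed over 8 adipocyte markers, the level was 317 and 390 CPM in the libraries of day 0, 4826 and 5401 in those of day 2, and 27925 and 33602 in those of day 6, with Lep at 0 on days 0 and 2. Summed over 8 progenitor markers it was 28633 and 33238 CPM, then 4033 and 4358, then 3305 and 5191, with no marker at 0. Most of that sum was Col1a1, a collagen gene, at 28438 CPM on average at day 0 and 2805 at day 2. At day 2, 7 of the 8 markers were lower than at day 0 and 0 higher, against 33.6% of all genes lower. Pdgfrb fell from 536 to 111 CPM on average, Thy1 from 697 to 184, Cd34 from 47.8 to 15.2 and Dpp4 from 9.98 to 0.876. Dlk1 went from 27.6 to 19.6 CPM. Pdgfra was 1.52-fold lower at day 2 (adjusted p = 0.0295 by edgeR), and Ly6a, at 560 and then 652 CPM, was not called (adjusted p = 0.235 by edgeR). In such mixed cultures a change in the number of cells of a type and a change in RNA per cell cannot be told apart.

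Between day 0 and day 2, 6 of the 9 genes rose, 2 fell and 1 was not called. Of all genes tested, 67.1% were called in this comparison, 33.6% higher and 33.6% lower, so a call alone says little here, and the sizes of the changes are given for each gene. The median log2 change of the 9 was 1.05, against 0.00 for all genes. Between day 2 and day 6, after dexamethasone had been taken away, 6 rose, 2 fell and 1 was not called, on a background of 65.7% called, 38.2% higher and 27.5% lower. At day 6, 8 of the 9 stood above day 0 and 1 below, on a background of 70.9% called, 35.9% higher and 35.1% lower. These shares of all genes are also the background for every list count given below. The metallothionein genes Mt1 and Mt2 were the members that fell after withdrawal, and neither reached its day 0 level. Day 2 enters both of the first 2 comparisons, so a high or low day 2 library moves them in opposite directions.

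**Figure D1:**
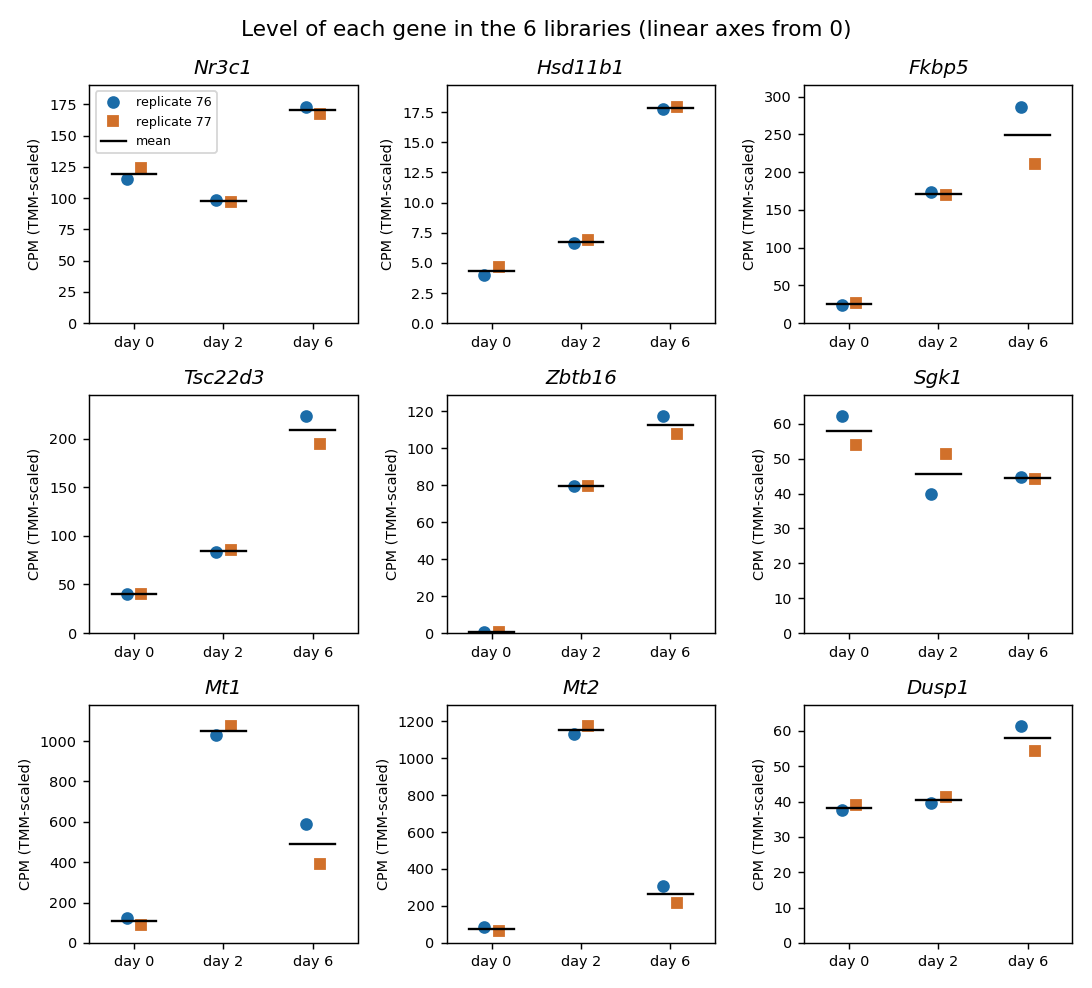
Level of each of the 9 genes in the 6 libraries, in TMM-scaled CPM on linear axes that start at 0. Circles are replicate 76, squares replicate 77 and short lines the mean of the 2. Fkbp5, Tsc22d3, Zbtb16 and Hsd11b1 stepped up at both intervals, Mt1 and Mt2 peaked at day 2, and Sgk1 and Dusp1 moved little by comparison.

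The receptor gene Nr3c1 stood at 115 and 124 CPM on day 0, then 98.4 and 97.1 on day 2 and 173 and 167 on day 6. The days did not overlap: day 2 was lowest and day 6 highest. The dip at day 2 was 1.22-fold (log2 change -0.29, SE 0.07, adjusted p = 0.00619 by edgeR). Scaling by library totals ended this call (adjusted p = 0.0610 by edgeR), as did leaving out replicate 77 of day 0 (log2 change -0.09, edgeR adjusted p = 0.471) or replicate 77 of day 2 (adjusted p = 0.0552). Over all alternatives the adjusted p ran from 0.00182 to 0.471. The rise from day 2 to day 6 was 1.74-fold (log2 change 0.80, SE 0.07, adjusted p = 1.98e-05 by edgeR) and held in every alternative run, and day 6 was 1.43-fold above day 0 (adjusted p = 0.000224 by edgeR).

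Hsd11b1 encodes 11-beta-hydroxysteroid dehydrogenase type 1, which turns inactive 11-keto steroids back into active glucocorticoid inside the cell, and is known to increase as adipocytes form. It had 4.01 and 4.70 CPM on day 0, then 6.63 and 6.87 on day 2 and 17.7 and 18.0 on day 6. Every library of a later day was above every library of an earlier one. The first step was 1.56-fold (log2 change 0.64, SE 0.14, adjusted p = 0.00313 by edgeR) and the next 2.64-fold (log2 change 1.40, SE 0.12, adjusted p = 2.01e-05 by edgeR), a total of 4.11-fold. The larger of these steps came in the medium without dexamethasone, but over 4 days against 2 days for the first. The sizes are thus not rates, and the difference between the steps was not itself tested.

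The mineralocorticoid receptor gene Nr3c2, whose product also binds glucocorticoids, stood at 0.903 ± 0.528 CPM at day 0, 0.9004 ± 0.456 at day 2 and 2.75 ± 0.220 at day 6, 3.06-fold higher at day 6 than at day 2 (adjusted p = 0.0117 by edgeR). Hsd11b2 encodes the enzyme of the opposite direction, which inactivates glucocorticoid. It rose 5.64-fold from 1.13 ± 0.0857 to 6.42 ± 1.45 CPM at day 2 and fell 3.14-fold to 2.03 ± 0.475 at day 6 (adjusted p = 6.00e-05 and 0.000488 by edgeR). These come from a list of 7 other genes of steroid handling, of which 4 were higher and 0 lower at day 2 against day 0, and 2 higher and 3 lower at day 6 against day 2. The list's median log2 changes were 0.80 and -0.04, against 0.00 and 0.12 for all genes. The count of 2 higher became 1 with library totals or without replicate 76 of day 2.

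Fkbp5 encodes an immunophilin of the Hsp90 complex that lowers the receptor's affinity for hormone, and its induction is a common readout of receptor activity. Its level was 24.5 and 26.7 CPM on day 0, then 173 and 170 on day 2 and 287 and 211 on day 6. All day 2 and day 6 libraries were far above day 0, and the 2 libraries of day 6 lay apart from each other but above both of day 2. The rise to day 2 was 6.70-fold (log2 change 2.74, SE 0.14, adjusted p = 1.88e-06 by edgeR), larger than that of 98.0% of genes tested. At day 6, 4 days after dexamethasone had been withdrawn, Fkbp5 was 9.74-fold above day 0 (95% interval 7.72 to 12.3). The further change from day 2 to day 6 was 1.45-fold (95% interval 1.18 to 1.79, adjusted p = 0.00643 by edgeR), which with library totals as the scaling was not called (log2 change 0.18, adjusted p = 0.223, where the alternatives ran from 2.84e-08 to 0.223).

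Tsc22d3 encodes GILZ, a leucine zipper protein that carries part of the anti-inflammatory action of glucocorticoids. It stood at 40.7 and 40.4 CPM on day 0, then 83.2 and 85.1 on day 2 and 223 and 194 on day 6. The days did not overlap and each was above the last. It rose 2.08-fold by day 2 (log2 change 1.05, SE 0.08, adjusted p = 1.26e-05 by edgeR) and a further 2.48-fold by day 6 (log2 change 1.31, SE 0.08, adjusted p = 2.96e-06 by edgeR). Both calls held in all alternatives run, and with library totals the step to day 6 was smaller (log2 change 0.95).

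Zbtb16 encodes PLZF, a zinc finger transcription factor. It was close to silent at day 0, with 10 and 7 counts (0.331 and 0.288 CPM), and stood at 79.4 and 79.3 CPM at day 2 and 117 and 108 at day 6. No other member changed by as large a factor: the fitted rise to day 2 was 251-fold (95% interval 204 to 308, adjusted p = 2.24e-08 by edgeR), above 99.9% of genes tested. From day 2 to day 6 it rose 1.42-fold (adjusted p = 0.000258 by edgeR), but not past the threshold with library totals (log2 change 0.14, adjusted p = 0.0831, where the alternatives ran from 1.46e-07 to 0.0831). Its level at day 6 was 355-fold that of day 0 (95% interval 289 to 435).

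Mt1 and Mt2 encode metallothioneins, small cysteine-rich proteins that bind zinc and copper and are induced by metals and by glucocorticoids. Mt1 went from 123 and 91.0 CPM at day 0 to 1031 and 1074 at day 2 and 588 and 390 at day 6. Mt2 went from 83.2 and 65.8 CPM to 1128 and 1172 and then to 308 and 218. In both genes the 3 days did not overlap, day 2 was highest and day 0 lowest, and library 76 was above library 77 at days 0 and 6. Mt1 rose 9.83-fold by day 2 (log2 change 3.30, SE 0.22, adjusted p = 5.01e-06 by edgeR) and fell 2.15-fold by day 6 (log2 change -1.11, SE 0.20, adjusted p = 0.00131 by edgeR). Mt2 rose 15.4-fold (log2 change 3.95, SE 0.19, adjusted p = 1.23e-06 by edgeR) and fell 4.37-fold (log2 change -2.13, SE 0.17, adjusted p = 1.27e-05 by edgeR). At day 6 they were still 4.57-fold and 3.53-fold above day 0, with 95% intervals of 3.29 to 6.35 and 2.68 to 4.65. All 6 of these calls held in every alternative run.

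Of all counts in genes, the pair took 0.0211% and 0.0163% on day 0, 0.242% and 0.249% on day 2, and 0.0760% and 0.0542% on day 6. At day 2 Mt2 ranked 68th in both libraries and Mt1 83rd and 77th among all gene lines by count. The ratio of Mt2 to Mt1 counts was 0.676 and 0.723 on day 0, then 1.09 and 1.09 on day 2 and 0.524 and 0.560 on day 6. Mt2 counts exceeded Mt1 counts in the day 2 libraries only, and the ratio at day 6 was below that of day 0 in both replicates. Another gene, Gm45774, overlaps 73.5% of the exonic length of Mt2. The sources used here name neither the annotation nor the strand setting of the counting. Whether reads in this overlap were counted for Mt2, for Gm45774 or as ambiguous is therefore not known. The levels of Mt2 and its ratio to Mt1 carry this limit. No 50-base stretch of Mt1 transcripts occurred in another gene's transcripts, and for Mt2 the 45.9% that did lay in Gm45774, so the 2 metallothioneins do not share such stretches with each other.

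**Figure D2:**
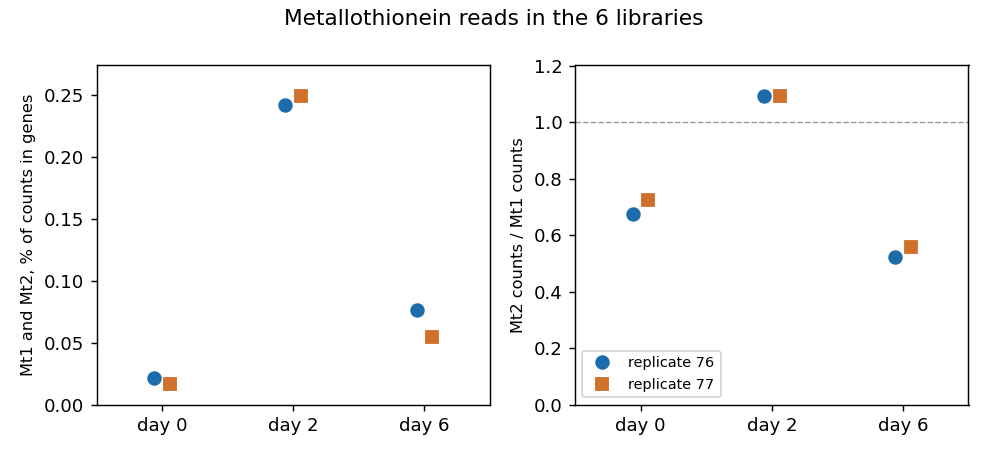
Left, Mt1 and Mt2 counts together as a percentage of counts in genes; right, the ratio of Mt2 to Mt1 counts, with a dashed line at 1. Each point is 1 library (circles replicate 76, squares replicate 77); the share peaked at 0.242% and 0.249% at day 2, the same day on which the ratio passed 1.

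Around the metallothioneins, 5 of 8 genes of metal sensing and zinc transport were tested. At day 2 against day 0, 3 were higher and 1 lower (median log2 change 0.53, against 0.00 for all genes), and at day 6 against day 2, 0 were higher and 3 lower (median -0.42, against 0.12). The zinc importer gene Slc39a14 rose 1.88-fold from 106 ± 2.37 to 199 ± 15.3 CPM and then fell 5.77-fold to 34.4 ± 1.84. Slc39a8, another zinc importer, fell 1.59-fold from 13.4 ± 0.403 to 8.47 ± 0.436 CPM. Their adjusted p was at most 0.000853 by edgeR. The brain and epithelial metallothioneins Mt3 and Mt4 had at most 2 counts in the libraries of any day together and were not tested.

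Sgk1 encodes a kinase of the AGC family that regulates ion transport and survival, and in many cell types it is an early target of glucocorticoids. It was not higher at day 2 or day 6 here. No library was made between day 0 and day 2, so an earlier, passing rise of Sgk1 would not be seen. Its level was 62.1 and 53.9 CPM on day 0, then 39.9 and 51.4 on day 2 and 44.7 and 44.1 on day 6. Day 0 lay above the other days, narrowly so for replicate 77, and days 2 and 6 overlapped. The fall to day 2 was 1.27-fold (log2 change -0.35, SE 0.12, adjusted p = 0.0331 by edgeR). It did not pass the threshold with library totals (adjusted p = 0.117 by edgeR) or with DESeq2 (adjusted p = 0.0704). Leaving out replicate 76 of day 0, replicate 77 of day 0 or replicate 76 of day 2 also ended the call (edgeR adjusted p = 0.213, adjusted p = 0.113 and adjusted p = 0.236). The alternatives ran from 0.000883 to 0.236. The 95% interval of the fold at day 2 relative to day 0 was 0.648 to 0.955. From day 2 to day 6 the log2 change was -0.04 (95% interval -0.32 to 0.24, adjusted p = 0.797 by edgeR). The sign was the opposite when replicate 77 of day 2 was left out (0.15, with an adjusted p = 0.308 by edgeR), and library totals gave a call (-0.40, adjusted p = 0.0194). The alternatives ran from 0.0194 to 0.865. Day 6 was 1.31-fold below day 0 (adjusted p = 0.0210 by edgeR). Leaving out replicate 76 of day 0 ended that call (edgeR adjusted p = 0.147, where the alternatives ran from 0.000138 to 0.147). The Sgk1 window printed above was the only one among the 14 with a full match to the response element, and the table does not separate transcripts from the 6 starts.

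Dusp1 encodes a phosphatase that switches off MAP kinases and is another early glucocorticoid target, also responsive to cyclic AMP and stress. It stood at 37.5 and 39.0 CPM on day 0, then 39.5 and 41.4 on day 2 and 61.3 and 54.5 on day 6. Day 2 lay just above day 0 without overlap, and day 6 was above both. A passing rise of Dusp1 before day 2 would not be seen in these libraries. The change at day 2 was 1.06-fold with a 95% interval of 0.930 to 1.20 (adjusted p = 0.398 by edgeR, where the alternatives ran from 0.0501 to 0.718). Between day 2 and day 6 it rose 1.43-fold (log2 change 0.52, SE 0.08, adjusted p = 0.000551 by edgeR), which was not called with library totals (log2 change 0.16, adjusted p = 0.0926, where the alternatives ran from 2.56e-07 to 0.0926). Day 6 was 1.51-fold above day 0 (adjusted p = 0.000204 by edgeR), in all alternatives called.

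**Figure D3:**
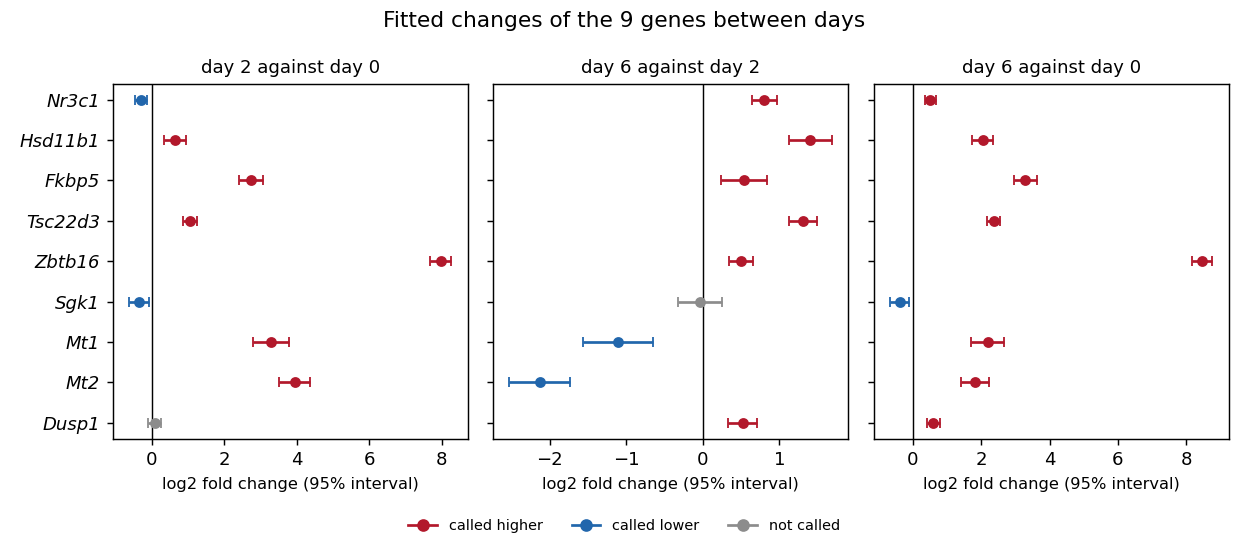
Fitted log2 fold changes of the 9 genes for the 3 comparisons, with 95% intervals from the edgeR standard errors; red is called higher, blue called lower and grey not called. The x axes differ between panels: Zbtb16 reaches 7.97 at day 2 against day 0, while at day 6 against day 2 Mt1 and Mt2 are the points below 0 that were called.

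Library totals as the scaling moved the median log2 change of all genes by 0.11 for day 2 against day 0, by -0.36 for day 6 against day 2 and by -0.25 for day 6 against day 0. With them 37.1% of called genes were higher at day 6 against day 2, compared with 58.1% under TMM, and 38.0% compared with 50.6% at day 6 against day 0. Against that shift the rises of Nr3c1, Hsd11b1 and Tsc22d3 from day 2 to day 6 and the falls of Mt1 and Mt2 kept their calls. Those of Fkbp5, Zbtb16 and Dusp1 kept their direction only.

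Per kilobase of exon (union of GENCODE M21 exons), Mt2 and Mt1 were the most abundant of the 9 on every day, at 1956 ± 53.3 and 845 ± 24.1 CPM per kilobase at day 2. At day 0 they were followed by Nr3c1 at 15.6 ± 0.805 CPM per kilobase, then Sgk1, Dusp1 and Tsc22d3 between 9.33 and 11.8, Fkbp5 at 2.70, Hsd11b1 at 1.02 and Zbtb16 at 0.0586. Sgk1 and Dusp1 overlapped on that day. At day 2 the order below the metallothioneins was Tsc22d3, Fkbp5, Zbtb16, Nr3c1, Dusp1, Sgk1 and Hsd11b1, from 19.4 to 1.59 CPM per kilobase, with no neighbours overlapping. At day 6 Tsc22d3 led at 48.1 ± 4.66 CPM per kilobase, followed by Fkbp5 at 26.3 ± 5.64, Nr3c1 at 22.2 ± 0.519 and Zbtb16 at 21.3 ± 1.28. Mt1 and Mt2 overlapped at day 6, as did Fkbp5 with Nr3c1 and Nr3c1 with Zbtb16. The order of Mt2 above Mt1 depends on the lengths used, 588 bases for Mt2 and 1246 for Mt1. The Mt1 length covers its whole gene span, which lowers its value per kilobase. By CPM without length, Mt1 was above Mt2 at day 0 (107 against 74.5) and day 6 (489 against 263).

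Chaperones hold the receptor ready for hormone. Of 10 chaperone and co-chaperone genes tested, 9 were higher and 0 lower at day 2 against day 0 (median log2 change 0.87, against 0.00 for all genes). At day 6 against day 2, 1 was higher and 8 lower (median -0.46, against 0.12), and 5 were lower without replicate 76 of day 2. Ppid, a cyclophilin that binds Hsp90, rose 2.66-fold from 41.1 ± 2.53 to 109 ± 2.83 CPM and fell 2.28-fold to 48.0 ± 0.0642. Bag1, a co-chaperone of Hsc70, was the one that rose after day 2, 1.91-fold from 132 ± 1.04 to 252 ± 1.15 CPM. The highest adjusted p of these 3 changes was 6.77e-06 by edgeR.

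Coactivators and corepressors of nuclear receptors split evenly, with 5 of 10 higher and 5 lower at day 2 and a median log2 change of 0.00. All genes tested were also split evenly, with 33.6% higher and 33.6% lower. The count of 5 lower became 2 with library totals, with DESeq2 and without replicate 77 of day 0 or replicate 76 of day 2, and 3 without replicate 76 of day 0. At day 6 against day 2, 4 were higher and 4 lower (median -0.03, against 0.12). The 4 higher became 1 with library totals and 2 with DESeq2, with only the 2 days fitted and without replicate 77 of day 0 or replicate 76 of day 2. Nrip1, which encodes the corepressor RIP140, rose 1.85-fold from 64.4 ± 1.52 to 119 ± 1.33 CPM and 1.49-fold more by day 6. Both of its changes had an adjusted p of at most 8.25e-05 by edgeR.

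Of 28 other genes known to be raised by glucocorticoids in one tissue or another, 26 were tested. At day 2 against day 0, 17 were higher and 6 lower, with a median log2 change of 1.07 against 0.00 for all genes; 3 were lower without replicate 77 of day 0 or replicate 76 of day 2. At day 6 against day 2, 16 were higher and 7 lower (median 0.33, against 0.12), and at day 6 against day 0, 21 were higher and 5 lower (median 1.37, against -0.01). The largest rises by day 2 were those of Lcn2, the secreted protein lipocalin 2 (37.8-fold, from 0.657 ± 0.0549 to 25.1 ± 0.357 CPM), Angptl4, an inhibitor of lipoprotein lipase (9.85-fold, to 584 ± 36.0 CPM), and Irs2, an insulin receptor substrate (8.85-fold, to 108 ± 17.6 CPM). Angptl4 is also a target of PPAR gamma, whose agonist rosiglitazone was in both media. The largest falls were those of the muscle-atrophy ubiquitin ligase gene Fbxo32 (5.39-fold, from 19.7 ± 0.0476 CPM), of Crispld2, which encodes a secreted protein (4.33-fold, from 69.6 ± 6.65 CPM), and of Cebpd, an early adipogenic transcription factor (1.79-fold, from 141 ± 4.05 to 78.9 ± 4.68 CPM). The adjusted p of these 6 changes was at most 7.88e-05 by edgeR.

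After withdrawal, the genes of this list with the largest falls were Ddit4, an inhibitor of mTORC1, Errfi1, a feedback inhibitor of the EGF receptor, and Cebpd. Ddit4 went from 183 ± 17.7 CPM on day 0 to 380 ± 7.90 on day 2 and 67.7 ± 3.57 on day 6, a fall of 5.61-fold. Errfi1 went from 120 ± 1.54 to 356 ± 9.41 and 154 ± 11.6 CPM, a fall of 2.31-fold. Cebpd fell a further 1.82-fold to 43.3 ± 5.57 CPM. The largest rises were those of Pck1, the gluconeogenic and glyceroneogenic enzyme PEPCK (62.9-fold, from 6 counts in both day 2 libraries together to 294 at day 6), Sult1a1, a sulfotransferase (51.0-fold, to 142 ± 36.2 CPM), and Mertk, a receptor for the engulfment of dying cells (7.08-fold, to 12.7 ± 1.21 CPM). Mertk is also expressed by macrophages. Their 10 markers summed to 35.1 and 66.97 CPM in the day 2 libraries and to 61.9 and 152 in those of day 6. Against 38.2% of all genes, 4 of the 10 were higher. That count was 0 without replicate 77 of day 2, 1 without replicate 76 of day 6 and 8 without replicate 77 of day 6, and none of the 10 was at 0 on any day. Their part in the rise of Mertk was not tested. The adjusted p of these 6 changes was at most 7.76e-05 by edgeR.

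**Figure D4:**
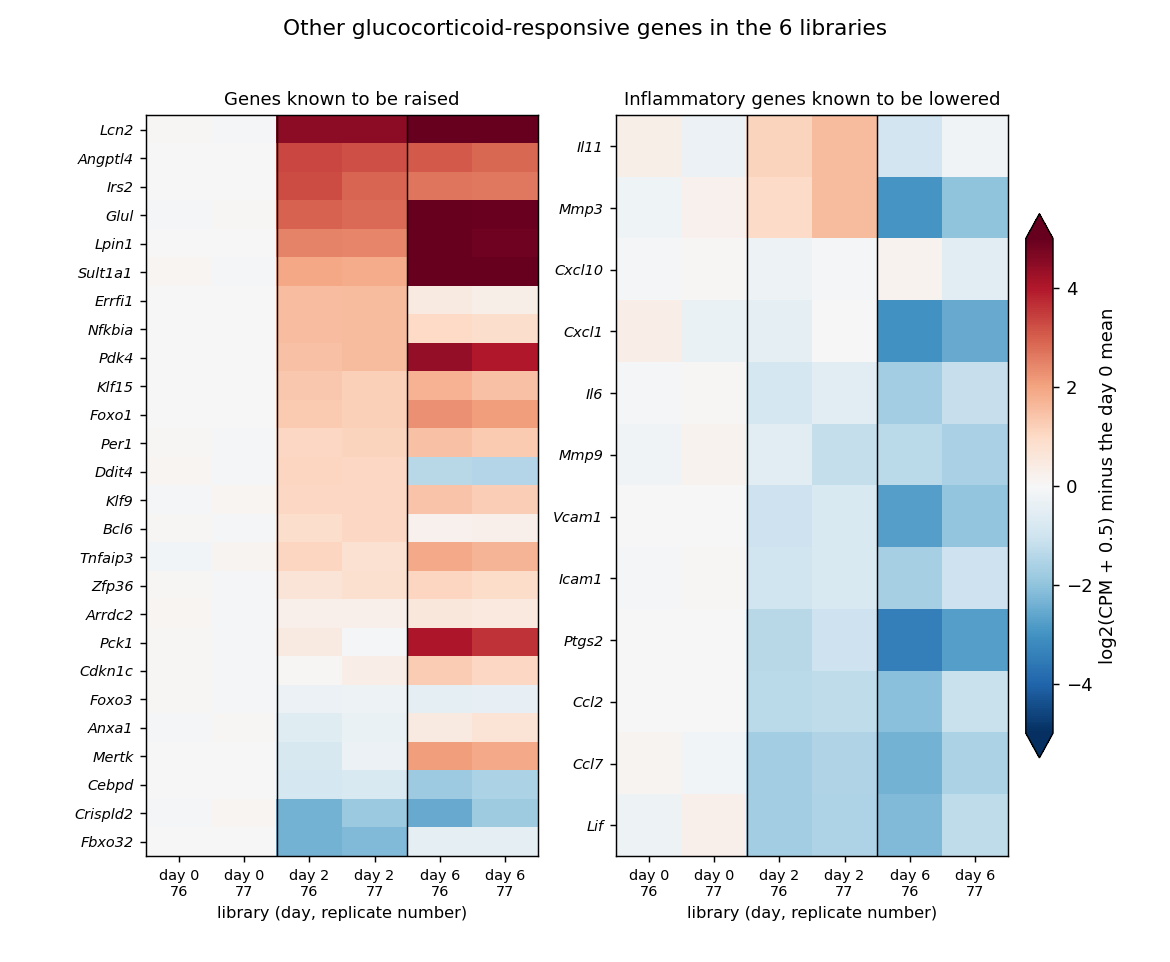
Log2(CPM + 0.5) of the tested genes of 2 lists in each of the 6 libraries, minus the gene's mean at day 0: left, 26 genes known to be raised by glucocorticoids; right, 12 inflammatory genes known to be lowered. Red is above and blue below day 0, genes are ordered by day 2, and colours are capped at 5 in either direction. On the left most rows stayed red at day 6, while Ddit4 turned from red to blue; on the right Mmp3 and Il11 were red at day 2.

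Of 17 inflammatory genes known to be lowered by glucocorticoids, 12 were tested. At day 2 against day 0, 8 were lower and 2 higher (median log2 change -0.90, against 0.00 for all genes), and 1 was higher without replicate 77 of day 2. At day 6 against day 2, in the medium without dexamethasone, 6 were lower and 0 higher (median -1.07, against 0.12), and at day 6 against day 0, 10 were lower and 0 higher (median -1.94, against -0.01). The largest falls by day 2 were those of the cytokine gene Lif (3.65-fold, from 8.23 ± 2.23 CPM) and of the monocyte chemokine genes Ccl7 (3.14-fold, from 48.5 ± 7.47 CPM) and Ccl2 (2.58-fold, from 24.0 ± 0.809 CPM). Those that rose were Il11, a cytokine of the interleukin 6 family (2.99-fold, to 4.23 ± 1.08 CPM), and the matrix protease gene Mmp3 (2.44-fold, from 33.9 ± 7.45 to 82.8 ± 24.8 CPM). After day 2, Mmp3 fell 14.3-fold to 5.86 ± 2.79 CPM, the neutrophil chemokine gene Cxcl1 9.66-fold to 0.647 ± 0.284 CPM and Il11 5.37-fold. For these 8 changes the adjusted p was at most 0.00643 by edgeR. From day 0 to day 2, 7 of 8 progenitor markers were also lower. From day 2 to day 6, 3 of the 8 were lower and 0 higher (1 lower without replicate 77 of day 2, and 4 higher without replicate 76 of day 6), and their summed levels overlapped. The part of these cells in the list's changes was not tested.

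Of 12 genes known to respond to cyclic AMP, 11 were tested. At day 2 against day 0, 8 were higher and 2 lower (median log2 change 0.85, against 0.00), with 0 lower without replicate 76 of day 0 and 1 without replicate 76 of day 2. At day 6 against day 2, 0 were higher and 7 lower (median -1.25, against 0.12), and 1 was higher without replicate 77 of day 6. The nuclear receptor gene Nr4a1 went from 48.7 ± 2.61 to 95.95 ± 6.27 and 7.76 ± 1.37 CPM, a fall of 12.4-fold after day 2. The regulator of G protein signalling gene Rgs2 rose 18.7-fold by day 2, from 4.18 ± 0.669 to 77.5 ± 2.28 CPM, and stood at 83.5 ± 17.4 at day 6. Fosb, an AP-1 subunit, fell 2.29-fold by day 2 from 2.73 ± 0.360 CPM. The adjusted p of these 3 changes was at most 0.00538 by edgeR. IBMX and dexamethasone entered and left together, so responses to the 2 cannot be told apart for the members either.

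Close relatives of Tsc22d3, Sgk1, Dusp1 and Fkbp5 showed how far the changes were shared within the families. Of 18, 16 were tested, and 6 were higher and 7 lower at day 2 (4 lower without replicate 77 of day 0). At day 6 against day 2, 8 were higher and 1 lower, a count of lower genes that ran from 1 to 6 over the alternatives, with 6 under library totals. The list's median log2 changes were -0.32 and 0.47, against 0.00 and 0.12 for all genes. Dusp4, which like Dusp1 encodes a MAP kinase phosphatase, rose 4.05-fold by day 2 from 17.0 ± 3.29 to 68.6 ± 0.428 CPM. Dusp8, another of this family, fell 3.76-fold from 4.58 ± 0.542 CPM and rose 5.29-fold to 6.47 ± 0.264 by day 6. Fkbp3, a nuclear immunophilin, fell 1.58-fold from 37.7 ± 0.812 to 23.8 ± 2.18 CPM between day 2 and day 6. The adjusted p of these 4 changes was at most 0.000299 by edgeR.

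Likeness of pattern was measured as the root mean square difference, over the 6 libraries, of log2 CPM centred on each gene's mean, against the 14458 other genes tested. The points share their libraries and the strong effect of day, so these distances are descriptions. Among the 9 genes the closest pairs were Nr3c1 with Dusp1 (0.165 on the log2 scale), Hsd11b1 with Tsc22d3 (0.205), Sgk1 with Dusp1 (0.417) and Mt1 with Mt2 (0.420). The measure is also small for genes that change little, whatever their direction. Sgk1 and Dusp1 went opposite ways at day 6 against day 0 (log2 changes -0.39 and 0.60). The nearest genes to Fkbp5 were Tfrc, the transferrin receptor (0.0831), Txlng (0.0951) and Tectb (0.123). Tectb averaged only 0, 0.385 and 0.627 CPM on days 0, 2 and 6, so its distance rests on few counts. Nearest to Tsc22d3 were Glrx, a glutaredoxin (0.0298), Ndufaf1, a complex I assembly factor (0.0339), and the mitochondrial ribosomal protein gene Mrps2 (0.0434). Neither Zbtb16 nor the metallothionein genes had neighbours as close. For Zbtb16 they were Map7d2 at 0.227, Acot5 at 0.297 and Agpat9 at 0.363. Zbtb16 averaged 0.310 CPM at day 0 and Acot5 0, so these distances rest partly on few counts. Near to Mt1 were the stress kinase gene Map3k5 (0.258) and the kinase gene Wnk4 (0.306). For Mt2 they were Wnk4 (0.304), Gm26809 (0.314) and Dio2, the deiodinase that makes active thyroid hormone (0.325). Hsd11b1 lay nearest to Blvra, biliverdin reductase (0.0694), Syne2 (0.0698) and Pmpcb (0.0791), and Nr3c1 to Kif13a (0.0247), Ppm1a (0.0252) and Mtmr6 (0.0279). Sgk1 lay nearest to Fnip2 (0.0563), Gm4924 (0.0690) and Ccdc167 (0.0694), and Dusp1 to Mtmr2 (0.0268), Chmp7 (0.0354) and Trappc3 (0.0400).

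Markers of other cell types that such a culture can hold also moved over the days. Endothelial markers (8 genes) summed to 31.1 and 35.9 CPM on day 0, then 6.65 and 6.94 on day 2 and 12.6 and 16.0 on day 6. Mural cell markers (8 genes) summed to 163 and 165, 57.2 and 62.9, and 225 and 231 CPM on the same days, and Schwann cell markers (6 genes) to 8.98 and 9.77, 1.73 and 2.75, and 24.5 and 30.6. The sums hide opposite changes of single markers. At day 6 against day 0, 3 mural markers (Cspg4, Notch3 and Mcam) were higher and 5 lower (median log2 change -1.62). Of 4 Schwann markers tested, Mbp was higher (4.73 to 24.7 CPM on average), S100b was lower and 2 were not called. All 6 endothelial markers tested were lower, and only Tek was higher at day 6 than at day 2. No endothelial or mural marker was at 0 on any day, and Gfra3 of the Schwann list was at 0 on all days. The part of these cells in the changes of the 9 genes was not tested.

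The 9 genes are protein coding and lie at these places in GRCm38 (GENCODE M21). Nr3c1 lies on chromosome 18 from 39410545 to 39519421 (minus strand) and Hsd11b1 on chromosome 1 from 193221634 to 193264075 (minus). Dusp1 lies on chromosome 17 from 26505590 to 26562128 (minus) and Fkbp5 on the same chromosome from 28399094 to 28517527 (minus). Tsc22d3 lies on chromosome X from 140539528 to 140600659 (minus), Zbtb16 on chromosome 9 from 48654297 to 48836222 (minus) and Sgk1 on chromosome 10 from 21882184 to 21999903 (plus). Mt2 and Mt1 are neighbours on chromosome 8, from 94172664 to 94173568 and from 94179082 to 94180327, both on the plus strand. Apart from Mt2, no member had more than 0.332% of its exonic length overlapping another gene or more than 0.684% of its 50-base stretches in another gene's transcripts.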

How the data were processed

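Poly(A) RNA-seq libraries were analysed, 6 in all and 2 per day. The authors deposited 1 table of counts; its column names say RPKM, but it holds whole numbers with different totals and closes with the 5 HTSeq summary lines, so the values were read as raw counts. Per the submitters' processing notes, TopHat2 2.0.13 and HTSeq 0.9.1 were used, with builds mm10 and GRCm38; the sources used here name neither annotation nor strand setting. The summary lines, left out of library sizes, held 2.62% to 3.23% (no feature), 4.40% to 4.91% (ambiguous) and 4.16% to 9.05% (not unique) of all counts, these lines included. The labels name no molecular identifiers, so depth speaks to counting error only.

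All 6 libraries entered 1 fit in edgeR 4.0.16 (R 4.3.3; TMM, filterByExpr, a mean per day, 3 residual degrees of freedom, quasi-likelihood F test, Benjamini-Hochberg over all genes tested). SEs were taken from the F statistic and 95% intervals from the test's degrees of freedom. These are more than the 3 residual ones, because the test borrows from the spread of other genes. The steps were tested on simulated data in which few genes changed, equally often up and down. That test cannot speak to the choice of scaling here, because most genes were called in the real data. Libraries of one day differed beyond counting noise alone (chi-square per degree of freedom 7.22, 8.08 and 28.4) and were kept as 2 libraries, which does not show that they are separate biological samples. Same-numbered libraries deviated together only weakly across genes (Pearson's r 0.109, 0.112 and 0.213 between days, Spearman's rho 0.0589, 0.0546 and 0.176). The numbers were used to pair libraries only in the alternative with a block, not in the main fit. The labels do not say what the numbers mark. Alternatives were library totals, DESeq2 1.42.0, no filter, only the 2 days compared, the replicate number as a block, and each library left out. Members and lists were chosen with earlier results of these data known, and the progenitor markers were added last. Named genes are all 9 members and, of each other list, the called gene with the largest rise and fall at day 2 against day 0 and day 6 against day 2 (3 each for the raised and lowered targets), plus the 3 nearest genes by pattern. Some genes that this rule names are not reported here.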

Additional observations from a re-analysis of the deposited data

How the results depend on the processing

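Over the 3 comparisons, each member was refitted under 11 alternatives, 297 values in all. Of these, 283 kept their direction and side of the threshold, 12 were no longer called, 1 became called and 1 turned. The value that turned was Sgk1 at day 6 against day 2, with a log2 change from -0.22 to 0.15 when 1 library was left out (-0.04 with all 6). The number of members called ran from 6 to 8 at day 2 against day 0 (8 as reported), 6 to 8 at day 6 against day 2 (8) and 8 to 9 at day 6 against day 0 (9). With the replicate block it was 8, 8 and 9, and the block changed no call of a member. The calls of all genes stayed within 1.5 times their main number. Nr3c1 and Sgk1 at day 2 and the rises of Fkbp5, Zbtb16 and Dusp1 after day 2 were the calls lost to scaling, with library totals; the cause was not tested. With 2 libraries a day, leaving one out rests that day on a single library, assumed to vary like the others.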
